A study of Mus musculus with 3 samples.

Results

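The Barx2, Uncx, Sp9 and Foxd4 loci are 4 regions of the mouse genome named for the developmental transcription factor gene that each holds. Their Cbx2 binding was measured by chromatin immunoprecipitation followed by sequencing (ChIP-seq). The loci were chosen by a very low ratio of the Cbx2 values in the deposited table, those of H3.3K36M cells over those of wild-type (WT) H3.3 cells, so that ratio is given as a description and not as a finding. Peaks of the deposited table were taken when they overlapped the windows 31.640 to 31.740 Mb on chromosome 9 (Barx2), 140.000 to 140.040 Mb on chromosome 5 (Uncx), 73.090 to 73.130 Mb on chromosome 2 (Sp9) or 24.955 to 24.990 Mb on chromosome 19 (Foxd4), all on the mm9 build. This gave 6 peaks of 2217 in all, 2 each at Barx2 and Uncx and 1 each at Sp9 and Foxd4.

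The cells were C3H10T1/2, a line of mesenchymal progenitors from C3H mouse embryos, at passage 10 to 15. All groups carried a stably expressed histone H3.3 transgene; the label for it gives a FLAG-HA tag. The WT group expressed wild-type H3.3, and the K36M group, by its title, H3.3 with lysine 36 replaced by methionine, although its genotype label reads wild-type. The labels do not name the promoter of the transgene or say whether the cells were a clone. Each group had 1 Cbx2 ChIP library, of 29278813 reads in WT and 36243012 reads in K36M, so no difference could be set against a spread between replicates and no p-value is given. A further library, of input DNA from WT cells, was not analysed here. For the Cbx2 antibody, the labels give more than 1 supplier.

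Cbx2 belongs to Polycomb repressive complex 1. Through its chromodomain it binds histone H3 trimethylated at lysine 27, and the complex is known for holding developmental regulators silent in cells of other lineages. The K36M mutant histone blocks the methyltransferases of lysine 36, a mark that counteracts methylation of lysine 27 on the same histone tail. Many Polycomb targets are transcription factor genes with promoters rich in CpG dinucleotides, and the 4 genes here all encode DNA-binding proteins. Barx2 is a Bar-class homeobox factor studied in muscle and cartilage formation. Uncx is a paired-type homeobox factor of the caudal part of the somite, needed for parts of the vertebrae and ribs. Sp9 is a zinc-finger factor of the Sp family, expressed in the apical ectodermal ridge of the limb bud and in developing forebrain neurons. Foxd4 is a forkhead factor; its relatives in the frog Xenopus keep neural ectoderm in an immature state.

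Promoter sequences of these genes are shown because CpG content is the sequence feature most often tied to Polycomb targets, and it had no part in how the loci were chosen. RefSeq promoter windows, from 250 bases before to 50 bases after the transcription start, were at hand for 3 of the 4 genes, Uncx, Sp9 and Foxd4. They are on the GRCm38.p6 build and the peaks are on mm9. Coordinates were not converted between the builds, so the distance from peak to promoter was not measured. The windows lie at chr5:139543648-139543947 on the plus strand (Uncx), chr2:73271676-73271975 on the plus strand (Sp9) and chr19:24900967-24901266 on the minus strand (Foxd4). Each is printed 5′ to 3′ on the strand of its gene, with every CpG dinucleotide in capitals.
Uncx: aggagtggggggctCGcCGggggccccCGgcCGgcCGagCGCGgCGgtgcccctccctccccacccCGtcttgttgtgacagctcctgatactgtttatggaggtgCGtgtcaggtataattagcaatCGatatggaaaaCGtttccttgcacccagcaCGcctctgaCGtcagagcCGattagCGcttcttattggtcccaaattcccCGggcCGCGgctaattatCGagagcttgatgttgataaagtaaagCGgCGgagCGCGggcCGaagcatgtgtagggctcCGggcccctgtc
Sp9: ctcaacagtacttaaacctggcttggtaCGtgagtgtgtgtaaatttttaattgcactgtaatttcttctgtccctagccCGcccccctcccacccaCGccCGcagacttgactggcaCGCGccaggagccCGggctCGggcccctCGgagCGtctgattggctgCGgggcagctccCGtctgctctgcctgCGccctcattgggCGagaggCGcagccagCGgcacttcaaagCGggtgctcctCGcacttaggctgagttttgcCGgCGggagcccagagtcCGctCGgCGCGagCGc
Foxd4: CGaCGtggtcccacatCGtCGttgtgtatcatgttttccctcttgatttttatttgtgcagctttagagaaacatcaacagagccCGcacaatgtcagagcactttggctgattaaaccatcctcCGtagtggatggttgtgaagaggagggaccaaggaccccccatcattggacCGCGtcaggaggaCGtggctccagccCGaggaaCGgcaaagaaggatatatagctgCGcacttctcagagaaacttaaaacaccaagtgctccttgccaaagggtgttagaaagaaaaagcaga

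The Uncx and Sp9 promoters were CpG-rich, and the Foxd4 promoter held fewer CpGs than either. The Uncx window held 26 CpG dinucleotides, a number that 16.9% of all 32851 RefSeq promoter windows reached. The Sp9 window held 25, reached by 18.4% of windows, and the Foxd4 window held 12, reached by 39.6%. The median over all windows was 7. Relative to the number of C and G bases in the window, the observed CpG number was 0.943 times the expected one at Uncx, 0.826 times at Sp9 and 0.667 times at Foxd4, against a median of 0.384. The G and C bases made up 60.7%, 63.7% and 49.0% of these windows, with a median of 52.7% over all. All 3 promoters were thus above the median in CpG number and in its observed-to-expected value, and Foxd4 was below the median in base composition.

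**Figure D1:**
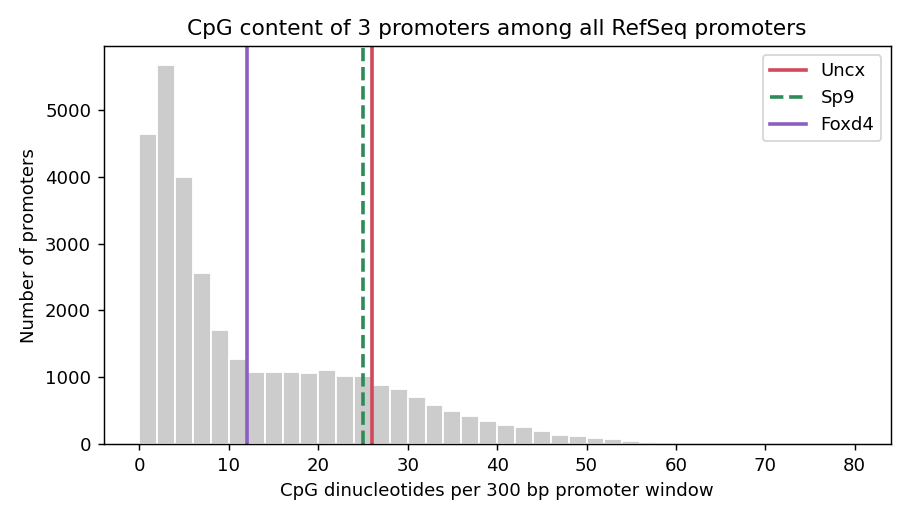
Number of RefSeq promoter windows (vertical axis) by the CpG dinucleotides in each 300 bp window (horizontal axis, grey bars of width 2), with vertical lines for Uncx, Sp9 and Foxd4. The Uncx and Sp9 lines, at 26 and 25, lie in the broad right-hand part of the distribution, and the Foxd4 line, at 12, lies nearer to the main mass of low counts.

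CpG content varied among family members of the same genes too. The promoter of Barx1, the other Bar-class gene of its type, held 50 CpGs, a number that 0.855% of all windows reached. Among forkhead genes of the same subfamily, Foxd1 held 15, Foxd2 held 26 and Foxd3 held 25, all above the 12 of Foxd4. Sp8, the closest relative of Sp9, had 3 annotated starts whose windows held 2, 32 and 10. Short motifs were searched on both strands of the windows after the sequences had been read. The letters CCAAT, the box bound by the factor NF-Y, occurred 1 time at Uncx, 2 times at Sp9 and 1 time at Foxd4, and in 37.4% of all windows. The GC box GGGCGG, bound by factors of the Sp family, occurred 1 time at Sp9 and in neither of the other windows, against 35.7% of all windows. The exact letters TATAAA were in none of the 3 windows and in 13.6% of all, and variants of this motif were not searched. These are matches of letters, not sites shown to be bound.

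Cbx2 signal at the 6 peaks was far lower in the K36M library than in the WT library. Over all 2217 peaks together the signal was lower too, with 1.63% of library reads in WT and 0.674% in K36M. With 1 library per group, the source of this gap was not tested. The values of the deposited table are reads per 1000000 library reads (RPM), and log2 ratios (K36M over WT) were taken after adding 0.1 RPM to both values. All 6 peaks were at least 2-fold lower in K36M, beside 75.3% of all peaks, and 5 were at least 4-fold lower, beside 15.9% of all peaks. No peak was under 1.62 RPM per kb of its length in WT. In K36M, 86.9% of all peaks, and all 6 peaks here, were under that value. The table thus appears to admit peaks by their WT signal, so shares of peaks lower in K36M are no unbiased background. The median log2 ratio was -2.69 over the 6 peaks and -1.45 over all peaks. When the libraries were instead matched over all peaks by their median, upper quartile or sum, 5 of the 6 peaks and 77, 85 or 186 of the 2217 peaks (3.47%, 3.83% or 8.39%) were at least 2-fold lower. Together the 6 peaks covered 23.4 kb and held 2225 reads in WT and 409 in K36M. Of all reads in peaks, this was 0.466% in WT (95% Wilson interval 0.447 to 0.485%) and 0.167% in K36M (0.152 to 0.184%). Since the loci were chosen for their ratio, nothing is read from these counts or shares.

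Over the peaks of each locus, the K36M/WT ratio was 0.154 at Barx2 (95% exact interval 0.129 to 0.183), 0.147 at Uncx (0.118 to 0.182), 0.149 at Sp9 (0.118 to 0.187) and 0.139 at Foxd4 (0.104 to 0.182). Ratios close to each other follow from the choice of loci with very low ones. The intervals overlapped for every pair of loci, and the loci were not compared directly, so no order of the ratios is read. PCR reads are not independent molecules, so all intervals cover counting error only and leave out variation between cultures and immunoprecipitations. When both libraries were instead given the same median over all peaks, the ratios were 0.444, 0.424, 0.431 and 0.401 in the same order.

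At Barx2, nearly all of the signal lay in a long peak. The peak from 31716600 to 31727999 on chromosome 9 was 11.4 kb long and ranked 33 from the top in length among all peaks. It held 789 reads (26.9 RPM) in WT. In K36M it held 148 reads (4.08 RPM), and the ratio was 0.152 (0.126 to 0.181). A short peak from 31682800 to 31683199, 0.4 kb long, the smallest length in the table, lay 33.4 kb away. There were 26 reads (0.888 RPM) in WT against 7 reads (0.193 RPM) in K36M, giving 0.217 (0.0797 to 0.515). Both peaks were lower in K36M. The wide interval of the short peak contained that of the long one, so no difference within the pair is read. The log2 ratio of the short peak was -1.75 with the pseudocount and -2.20 without it. The long peak held 96.8% of the WT reads of the locus.

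At Uncx, a short dense peak and a longer, less dense peak stood 6.8 kb apart. The peak on chromosome 5 from 140014800 to 140016399, 1.6 kb long, held 212 reads (7.24 RPM) in WT against 44 (1.21 RPM) in K36M, giving a ratio of 0.168 (0.118 to 0.233). The peak from 140023200 to 140027599, 4.4 kb long, held 344 reads (11.7 RPM) in WT against 57 (1.57 RPM) in K36M, giving a ratio of 0.134 (0.0993 to 0.178). Per length, the short peak was the denser of the pair in both libraries, 1.69-fold in WT and 2.12-fold in K36M. The intervals of the pair overlapped.

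At Sp9 and Foxd4, 1 peak each carried the signal. The Sp9 peak on chromosome 2 from 73112400 to 73114999, 2.6 kb long, held 487 reads (16.6 RPM) in WT against 90 reads (2.48 RPM) in K36M. The Foxd4 peak on chromosome 19 from 24971400 to 24974399, 3.0 kb long, held 367 reads (12.5 RPM) in WT against 63 reads (1.74 RPM) in K36M. As each is the only peak of its locus, its ratio is the one given for the locus.

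Divided by length, the peaks fell into 3 levels in WT. The Sp9 peak was the densest, with 6.40 RPM per kb in WT (95% exact Poisson interval 5.84 to 6.99), which ranked 36 from the top among all 2217 peaks. The shorter Uncx peak had 4.53 RPM per kb (3.94 to 5.18) and the Foxd4 peak 4.18 RPM per kb (3.76 to 4.63), with overlapping intervals. They ranked 93 and 116 from the top. The longer Uncx peak had 2.67 RPM per kb (2.40 to 2.97), the long Barx2 peak 2.36 RPM per kb (2.20 to 2.53) and the short Barx2 peak 2.22 RPM per kb (1.45 to 3.25), again with overlapping intervals. The Barx2 peaks lay near the median of all peaks, 2.35 RPM per kb, and the interval of the longer Uncx peak lay above it, so high Cbx2 density in WT was not shared by all 4 loci. Among the 6 peaks the WT density varied 2.88-fold.

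In the K36M library the densities kept a similar order at a lower level. The Sp9 peak had 0.955 RPM per kb (0.768 to 1.17), the shorter Uncx peak 0.759 RPM per kb (0.551 to 1.02) and the Foxd4 peak 0.579 RPM per kb (0.445 to 0.741). The short Barx2 peak had 0.483 RPM per kb (0.194 to 0.995), the long Barx2 peak 0.358 RPM per kb (0.303 to 0.421) and the longer Uncx peak 0.357 RPM per kb (0.271 to 0.463). Each of these neighbours in the order overlapped the next. The Sp9 peak was above the median of all peaks in K36M, 0.828 RPM per kb, and the other 5 were below it. The long Barx2 peak and the longer Uncx peak were among the sparsest in the table in K36M, at ranks 2175 and 2177 from the top. These low ranks also follow in part from the choice by ratio. No background was subtracted, so part of the K36M reads may not come from Cbx2, and the ratios do not measure the binding that was left.

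**Figure D2:**
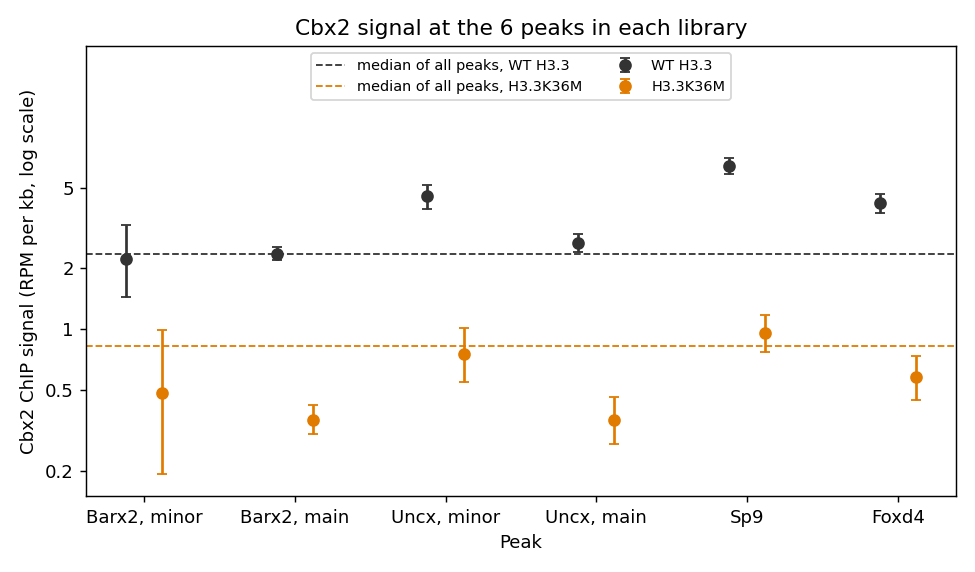
Cbx2 ChIP signal in RPM per kb (vertical axis, log scale) at the 6 peaks (horizontal axis) in the WT (black) and K36M (orange) libraries, 1 library each; bars are 95% exact Poisson intervals, dashed lines are medians of all peaks, and main marks the peak of a locus with more WT reads and minor the other. The K36M value lies below the WT value at every peak, and Sp9 is the highest in both libraries.

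Peaks as dense in WT as Sp9, Foxd4 and the shorter Uncx peak mostly had higher ratios. Of the 35 other peaks at least as dense in WT as the Sp9 peak, the median log2 ratio was -0.28, 12 were higher in K36M than in WT, and 1 was as low as Sp9, whose log2 ratio was -2.70. Of the 113 others at least as dense as the Foxd4 peak, the median was -0.41, 37 were higher in K36M, and 0 were as low as Foxd4, at -2.78. Of the 91 others at least as dense as the shorter Uncx peak, the median was -0.22, 36 were higher, and 2 were as low as that peak, at -2.48. The Barx2 and longer Uncx peaks had more ordinary company. Of 1082 others at least as dense as the long Barx2 peak, the median was -1.48 and 8 were as low as its -2.69. Of 578 at least as dense as the longer Uncx peak, the median was -1.53 and 2 were as low as its -2.82. These medians and counts hold on the RPM scale. When both libraries were given the same median, an alternative added after seeing the data, the medians were 1.24 for the peaks as dense as Sp9, 1.08 for Foxd4 and 1.30 for the shorter Uncx peak, and -0.034 and -0.061 for the long Barx2 and longer Uncx peaks. The number of peaks as low was then 1 for Sp9, 0 for Foxd4, 1 for the shorter Uncx peak, 17 for the long Barx2 peak and 4 for the longer Uncx peak. These counts describe where the chosen peaks lay; the choice by ratio fixed their low place.

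**Figure D3:**
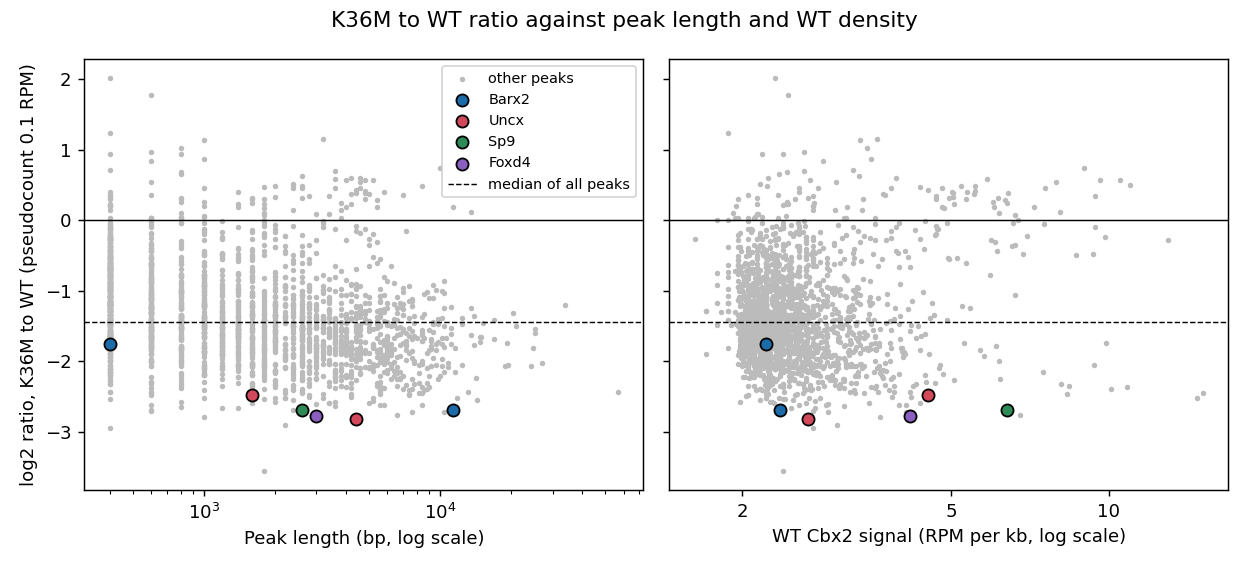
The log2 ratio of K36M to WT with a pseudocount of 0.1 RPM (vertical axis) against peak length in bp (left, log scale) and WT signal in RPM per kb (right, log scale) for all 2217 peaks, with the 6 peaks of the 4 loci coloured, the median of all peaks dashed and 0 as a solid line. The coloured peaks span the range of lengths from 400 bp to 11.4 kb, and Sp9 lies at the dense end of the right panel near the lower edge of the cloud.

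The loci did not share a peak length. Their peaks ran from 0.4 to 11.4 kb, with a median of 2.8 kb, against 1.6 kb over all peaks. The long Barx2 peak belonged to the 288 peaks of 5.2 kb or more, whose median log2 ratio was -1.74 and of whose other 287 members 3 were lower. The short Barx2 peak belonged to the 428 peaks of 400 bp, whose median was -1.12 and of whose other 427 members 49 were lower. The Uncx pair belonged to the 449 peaks of intermediate length with a neighbour within 10 kb (median -1.48), where 0 of the 447 others were lower than the longer Uncx peak and 9 were lower than the shorter one. The Sp9 and Foxd4 peaks belonged to the 1052 isolated peaks of intermediate length (median -1.48), and 2 of the 1050 others were lower than each of them. These counts place the chosen peaks and support nothing further.

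The surroundings of the loci also differed. With peaks up to 50 kb apart joined, the table formed 1454 groups of peaks, of which 72.9% held 1 peak, and the median distance from a group to the nearest other was 0.278 Mb. The Barx2 pair was 1.35 Mb from the nearest other peak, a distance that 14.4% of groups reached, and the Uncx pair 1.03 Mb, reached by 19.4%. The Foxd4 peak was 0.330 Mb from its nearest neighbour and the Sp9 peak 0.293 Mb, distances that 45.7% and 48.9% of groups reached. Barx2 and Uncx thus stood alone within 1 Mb, while Sp9 had 2 and Foxd4 had 3 other peaks within that distance. By the order of protein-coding genes in RefSeq, Barx2 lies between Tmem45b and Arhgap32, Uncx between Zfand2a and Micall2, Sp9 between Ola1 and Cir1, and Foxd4 between Pgm5 and Cbwd1. The peak table carries no gene names, so the tie of each peak to its gene rests on the windows.

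The nearest peaks outside the windows had ratios that ranged, on the RPM scale, from as low as those of the loci to near 1. Beside Barx2, the next peak on the right, at 33078600 on chromosome 9, held 336 reads in WT against 66 in K36M, giving 0.159 (0.120 to 0.207) that overlapped that of the locus. The next on the left, at 26965000, held 52 and 14 reads, giving 0.217 (0.111 to 0.398). Both neighbours of Barx2 were thus lower in K36M, and both intervals overlapped that of the locus. Beside Uncx, the peak on the left at 138981600 held 25 and 11 reads, a ratio of 0.355 (0.158 to 0.749), and the peak on the right at 143663200 held 529 and 526 reads, a ratio of 0.803 (0.711 to 0.908). The interval on the left overlapped that of the Uncx locus only at its lower edge, and the interval on the right lay above it. The ratio of the Uncx locus, 0.147, lay below both flanking intervals, a place that follows in part from the choice by ratio.

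Around Sp9 the flanking peaks differed from each other. The peak 293 kb to the left, at 72818400 on chromosome 2, held 62 reads in WT against 79 in K36M, giving 1.03 (0.729 to 1.46). The peak 496.6 kb to the right, at 73611600, held 1236 and 318 reads, a ratio of 0.208 (0.183 to 0.235), and was about as dense in WT as Sp9, with 6.21 RPM per kb. The interval of the left neighbour lay above that of Sp9, and that of the right neighbour overlapped it only at its lower edge. The ratio of Sp9, 0.149, lay below the interval of the right neighbour. Beside Foxd4, the peak on the left at 24640400 had a ratio of 0.263 (0.167 to 0.404) and the peak on the right at 25678000 a ratio of 0.289 (0.184 to 0.442), on 29 and 30 reads in K36M. The left interval overlapped that of Foxd4 only at its lower edge, and the right interval lay just above it. The ratio of Foxd4, 0.139, lay below both flanking intervals. The low places of Sp9 and Foxd4 beside their flanks follow in part from the choice of loci by ratio.

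Within 5 Mb on either side, the main peak of each locus had the lowest log2 ratio, a place that follows in part from how the loci were chosen. The 5 other peaks around Barx2 had a median of -1.95 and ran from -2.59 to -1.21. The 10 around Uncx had a median of -1.26 and ran from -2.06 to -0.31. The 26 around Sp9 had a median of -1.13 and ran from -2.25 to 0.040. The 18 around Foxd4 had a median of -1.44 and ran from -2.17 to -0.27. The surroundings of Barx2 were lower than the median of all peaks, and those of the other loci were at or above it.

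**Figure D4:**
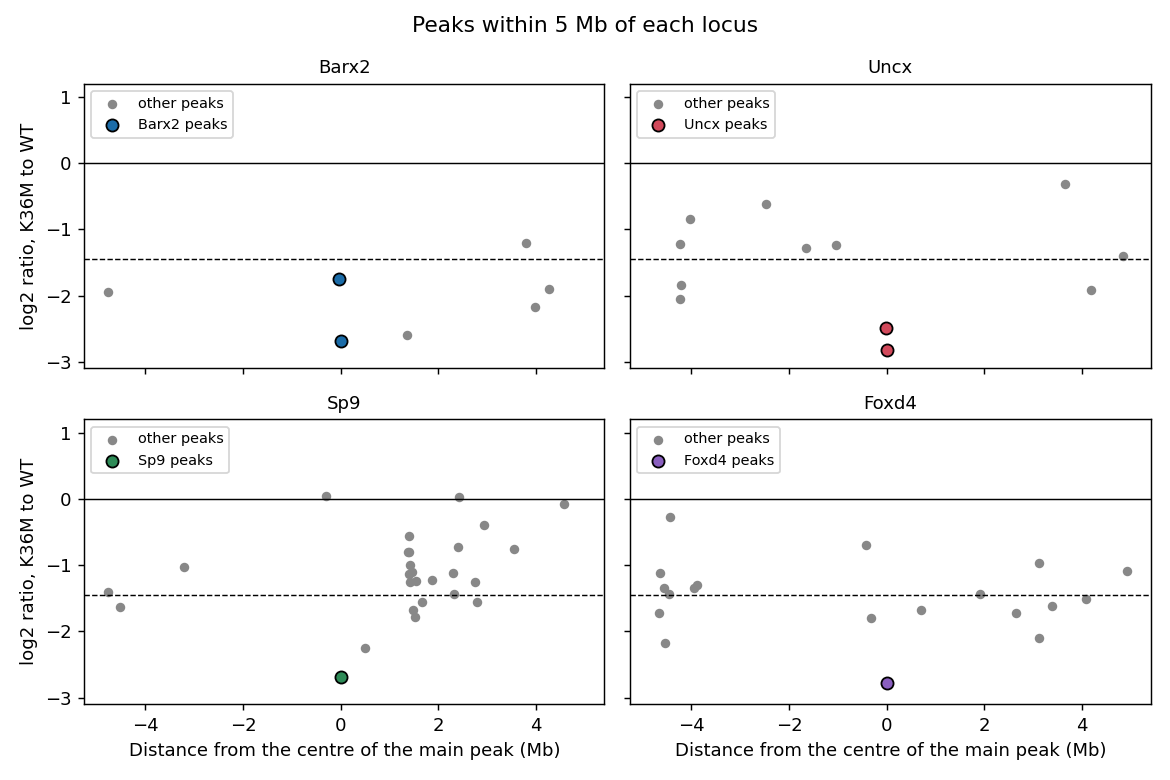
The log2 ratio of K36M to WT (vertical axis) of every peak within 5 Mb of the main peak of each locus, by distance from the centre of that peak in Mb (horizontal axis), with peaks of the locus coloured, the median of all peaks dashed and 0 as a solid line. In each panel the main peak of the locus is the lowest point.

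Elsewhere in the genome, the peaks most like the main peak of each locus were found by the distance between their log2 RPM values over the 2 libraries. For the long Barx2 peak these were a peak on chromosome 1 from 55998200 to 56006599, where WT had 24.2 RPM against 3.86 RPM in K36M, and a peak on chromosome 6 from 30909400 to 30915199, with 23.8 and 3.78 RPM. For Sp9 they were on chromosome 4 from 88459800 to 88463999, with 16.2 and 2.76 RPM, and on chromosome 1 from 50974800 to 50982199, with 15.2 and 2.65 RPM. These matches had a little less signal than Sp9 in WT and a little more in K36M, and they were longer, so per length they held 3.85 and 2.05 RPM per kb in WT against 6.40 at Sp9. For the longer Uncx peak the closest was on chromosome 9 from 14933000 to 14936599, with 11.3 and 1.74 RPM, and for Foxd4 it was on chromosome 5 from 108151200 to 108154599, with 11.9 and 1.88 RPM. The second closest to both was the right-hand neighbour of Barx2 on chromosome 9, from 33078600 to 33083599, with 11.5 and 1.82 RPM.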

How the data were processed

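Reads were aligned with Bowtie 1.0.0 to mm9, per the submitters' processing notes; how peaks were called is not given in the sources used here. Fixation was in 1% formaldehyde for 10 min and 5% of chromatin was kept as input, per the labels' protocols. The deposited table gives 2217 peaks and 2 value columns headed RPKM. The deposited values are RPM: dividing a column by its smallest step gave whole reads for 100% of values (tolerance 1e-06 reads), so peak length did not enter. Library totals and reads per peak were recovered from that step. That the WT column holds the ChIP and not the input was inferred from the name of the table.

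Ratios carry 95% exact (Clopper-Pearson) intervals given the reads of both libraries. Overlap of intervals is given as a description, since 2 ratios can differ beyond counting error while their intervals still overlap. Log2 ratios used a pseudocount of 0.1 RPM, which understates changes of weak peaks. RPM per kb was RPM over peak length. Recovery of library totals and intervals was tested on simulated reads. The members and lists were chosen with earlier results of these data known; motifs, spacing and the 5 Mb regions were chosen after values were seen. All 6 peaks are named; outside the windows, the nearest peak on each side and the 2 most like each main peak are named. A comparison of protein sequences was not run. Python 3.11.15 with numpy 2.4.6, pandas 2.3.3 and scipy 1.17.1 was used.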

Additional observations from a re-analysis of the deposited data

How the results depend on the processing

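The scaling of the libraries set the size of the ratios. With the same median, upper quartile or sum over all peaks, the ratio was 0.444, 0.437 or 0.372 at Barx2, 0.424, 0.418 or 0.355 at Uncx, 0.431, 0.425 or 0.361 at Sp9 and 0.401, 0.395 or 0.336 at Foxd4. These scalings moved the median log2 ratio of all peaks up by 1.43, 1.41 and 1.18 and that of the 6 peaks to -1.19, -1.21 and -1.45, so the difference of the medians (6 peaks minus all peaks) was -1.17, -1.17 and -1.18, against -1.25 with RPM. At least 2-fold lower were then 5 of the 6 peaks, all but the short Barx2 peak, and 77, 85 and 186 of all peaks. A pseudocount of 1 gave 5 and 1025, a limit of 3-fold 6 and 885, and leaving out the weaker peaks (mean RPM under the median) 5 and 899. With the same median, the median log2 ratio of other peaks as dense in WT as Sp9, Foxd4 or the shorter Uncx peak changed sign, to 1.24, 1.08 and 1.30; adding the shift in scale is the cause by construction. Without its long peak, Barx2 had a ratio of 0.217. Windows widened by 50 kb held the same 6 peaks. The short Barx2 peak, with 7 reads in K36M, is the one most limited by depth. No paired analysis was possible because there was 1 ChIP library per group.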
